A study of Homo sapiens with 36 samples.

Results

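Knockdown of NFYB was examined at 4 h after activation of E2F1 in U2OS cells, a human osteosarcoma line. The members were the 12 arrays taken at 4 h of 4-hydroxytamoxifen (OHT), of 36 arrays in the series, chosen by the siRNA and the time in their labels. Of these, 6 came from cells given an NFYB siRNA (3 from Ambion and 3 from Dharmacon) and 6 from cells given a negative control siRNA (3 from Dharmacon and 3 from Sigma-Aldrich). Every culture, control or knockdown, carried ER-HA-E2F1, a fusion of E2F1 with a hormone binding domain that enters the nucleus when OHT is added, and every culture at 4 h had been given 80 nM OHT. Cells were starved of serum for 24 h, beginning 18 h after transfection, so that at 4 h the siRNA had been present through the whole starvation. The remaining 24 arrays held the same 4 siRNAs at 0 h, before OHT, and at 8 h. The fusion came from a retroviral vector in a stably infected line. The E2F1 that OHT activates is therefore an introduced and ligand-driven form, present beside the cells' own E2F1. The Dharmacon supplier provided both a control and an NFYB siRNA, and each arm rested on only 2 siRNAs.

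NF-Y is a transcription factor of 3 subunits, NFYA, NFYB and NFYC. NFYB and NFYC pair through histone-like folds, NFYA joins the pair, and the complex then binds the CCAAT box, a short element found upstream of many genes of the cell cycle, of protein folding in the endoplasmic reticulum (ER) and of lipid synthesis. E2F1 is a transcription factor of the G1/S transition that can also turn on genes of apoptosis. The comparison asks which transcripts depend on NFYB while E2F1 is active but before the later 8 h time point.

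The upstream sequences of 9 genes are shown first because the CCAAT word is what NF-Y recognises, and these genes recur in the results. The first 4 (ADI1, LRRC17, LTBP1 and GLCE) stood among the 15 genes with the greatest decrease (of those that passed the test, lay in the brighter 60% of probe sets and had one sign in every pair of siRNAs) and held the word upstream of the start, NUDT2 had the greatest increase among the brighter probe sets, and HSPA5, SEL1L, PDIA4 and CCNB2 were added after their values were seen. The genes added later were kept only if they held the word upstream, and CDC25C, considered with them, held none. Each sequence is the 250 bases before the RefSeq start of the gene in GRCh38.p14, 5′ to 3′ on the strand of the gene, with CCAAT or its reverse complement ATTGG in capitals.
ADI1: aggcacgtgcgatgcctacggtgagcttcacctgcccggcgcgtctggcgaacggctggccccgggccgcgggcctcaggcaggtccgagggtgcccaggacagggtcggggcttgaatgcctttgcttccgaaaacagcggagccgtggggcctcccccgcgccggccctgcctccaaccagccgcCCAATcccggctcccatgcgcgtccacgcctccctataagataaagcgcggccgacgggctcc
LRRC17: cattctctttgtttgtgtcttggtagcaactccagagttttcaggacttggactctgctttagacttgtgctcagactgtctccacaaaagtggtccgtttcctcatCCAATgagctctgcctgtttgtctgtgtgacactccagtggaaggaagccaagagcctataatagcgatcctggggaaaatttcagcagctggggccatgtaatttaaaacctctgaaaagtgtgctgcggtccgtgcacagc
LTBP1: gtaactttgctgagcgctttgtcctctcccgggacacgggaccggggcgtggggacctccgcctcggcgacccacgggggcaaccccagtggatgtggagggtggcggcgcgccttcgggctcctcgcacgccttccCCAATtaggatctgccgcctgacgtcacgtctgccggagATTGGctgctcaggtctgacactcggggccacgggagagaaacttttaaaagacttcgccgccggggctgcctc
GLCE: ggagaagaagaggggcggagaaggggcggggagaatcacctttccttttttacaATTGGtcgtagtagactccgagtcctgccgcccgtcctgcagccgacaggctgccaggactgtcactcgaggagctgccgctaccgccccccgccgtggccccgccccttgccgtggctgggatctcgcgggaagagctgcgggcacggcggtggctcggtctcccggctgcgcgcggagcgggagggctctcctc
NUDT2: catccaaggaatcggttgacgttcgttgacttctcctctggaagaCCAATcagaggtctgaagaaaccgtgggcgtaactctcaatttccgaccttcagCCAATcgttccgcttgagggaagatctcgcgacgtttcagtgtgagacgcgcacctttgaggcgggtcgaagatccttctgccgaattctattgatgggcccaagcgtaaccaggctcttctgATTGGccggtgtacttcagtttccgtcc
HSPA5: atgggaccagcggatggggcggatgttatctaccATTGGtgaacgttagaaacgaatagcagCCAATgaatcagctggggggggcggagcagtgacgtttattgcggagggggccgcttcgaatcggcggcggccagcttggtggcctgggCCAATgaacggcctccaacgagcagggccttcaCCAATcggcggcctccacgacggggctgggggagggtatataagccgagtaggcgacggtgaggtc
SEL1L: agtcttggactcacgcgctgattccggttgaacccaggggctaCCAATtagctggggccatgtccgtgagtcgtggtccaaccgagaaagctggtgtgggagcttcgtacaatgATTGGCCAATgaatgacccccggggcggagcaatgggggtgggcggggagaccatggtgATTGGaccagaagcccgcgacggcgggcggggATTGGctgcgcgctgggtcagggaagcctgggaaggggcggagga
PDIA4: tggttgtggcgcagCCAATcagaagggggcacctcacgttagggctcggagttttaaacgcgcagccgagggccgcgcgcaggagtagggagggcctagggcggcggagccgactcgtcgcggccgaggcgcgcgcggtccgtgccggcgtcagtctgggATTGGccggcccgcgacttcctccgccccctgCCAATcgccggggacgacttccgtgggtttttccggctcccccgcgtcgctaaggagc
CCNB2: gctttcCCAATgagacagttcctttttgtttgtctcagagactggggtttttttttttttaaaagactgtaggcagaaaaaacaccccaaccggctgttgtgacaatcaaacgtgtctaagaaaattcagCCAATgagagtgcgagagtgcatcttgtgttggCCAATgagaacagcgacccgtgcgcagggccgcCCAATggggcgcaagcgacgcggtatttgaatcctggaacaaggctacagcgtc
ADI1 lies at chr2:3519532-3519781 (minus strand), LRRC17 at chr7:102912750-102912999 (plus), LTBP1 at chr2:32946703-32946952 (plus) and GLCE at chr15:69160385-69160634 (plus). NUDT2 lies at chr9:34329319-34329568 (plus), HSPA5 at chr9:125241344-125241593 (minus), SEL1L at chr14:81533854-81534103 (minus), PDIA4 at chr7:149028491-149028740 (minus) and CCNB2 at chr15:59104896-59105145 (plus). The CCNB2 stretch holds 4 words, 3 of which begin 120, 87 and 54 bases before the start in the same orientation, and SEL1L holds 5 words, of which one ATTGG and one CCAAT adjoin. A match to these letters is a description of the sequence and not a bound site.

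The 12 arrays were of similar quality. Median signals ran from 107.7 to 118.8, and Pearson correlations of log2 signal ran from 0.954 to 0.959 within a siRNA, from 0.9509 to 0.9562 between siRNAs of one arm and from 0.9485 to 0.9558 between the arms. The 3′ to 5′ signal ratio of GAPDH was 1.04 to 1.17 in control arrays and 0.967 to 1.18 in NFYB siRNA arrays. For ACTB the same ratio was 2.69 to 3.53 and 2.75 to 4.69, with the highest value in replicate 1 of the Ambion siRNA. Of the osteoblast and mesenchymal markers, 9 of 13 measured genes lay in the brighter 60% of probe sets. That share is close to the one over all genes, 7966 of 11963, and does not set these markers apart. The counts were 2 of 12 for leukocyte, 4 of 12 for epithelial and 1 of 9 for endothelial markers. None of the last 3 lists had a gene that passed the test of NFYB against control siRNA (limma, adjusted p under 0.05, with 1, 1 and 2 genes at an unadjusted p under 0.05).

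Knockdown was present in every NFYB siRNA array. On the brightest NFYB probe set, the MAS5 signal, a linear brightness scaled to a common array mean, ran from 389 to 491 with a median of 446 in the 6 control arrays and from 57.0 to 159 with a median of 118 in the 6 NFYB siRNA arrays. The highest NFYB siRNA array was below the lowest control array. The log2 fold change, here and below the mean log2 signal of NFYB siRNA minus that of control siRNA, was -2.03 (SE 0.191, limma adjusted p = 3.15e-09). The other probe sets of the gene gave -2.92 and -2.25. On the brightest probe set the difference from the pooled controls was -1.62 for the Ambion siRNA and -2.45 for the Dharmacon siRNA. In control cells NFYB itself rose by 1.23 on the log2 scale between 0 h and 4 h of OHT (adjusted p = 1.58e-06), a comparison that shares the 4 h control arrays. The knockdown measured -1.502 at 0 h and -2.44 at 8 h.

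The other subunits of NF-Y were higher when NFYB was low. NFYA, the subunit that reads the CCAAT sequence, ran from 349 to 446 in control arrays with a median of 365 and from 740 to 934 in NFYB siRNA arrays with a median of 838. The groups did not overlap, and NFYA rose by 1.16 on the log2 scale (SE 0.0903, limma adjusted p = 5.47e-11). Of its 4 probe sets 3 passed the test, and the dimmest gave 1.01 (adjusted p = 0.223). NFYC, the partner of NFYB in the histone-fold pair, ran from 558 to 671 in control arrays with a median of 609 and from 903 to 1121 in NFYB siRNA arrays with a median of 1007. All 4 NFYC probe sets rose, by 0.74 to 0.81, and none of them overlapped between groups. NFYA was 0.99 higher at 0 h and 0.94 higher at 8 h, and NFYC 0.59 and 0.72, so that both were also higher before OHT and later. As bulk RNA was measured, fewer cells expressing a gene and less RNA per cell cannot be told apart, here and in every result that follows.

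**Figure D1:**
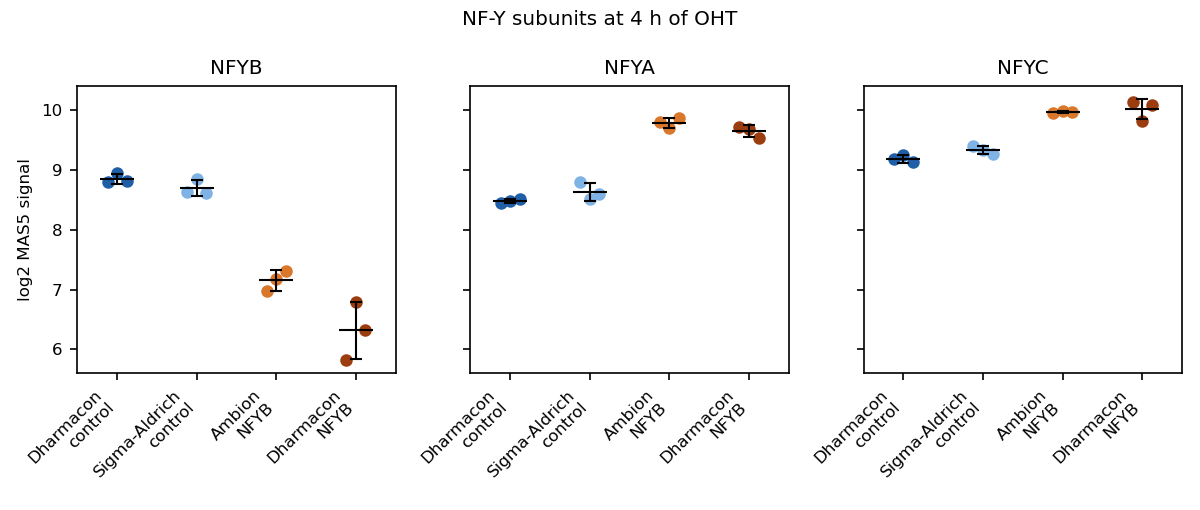
Log2 MAS5 signal of the brightest probe set of NFYB, NFYA and NFYC in each of the 12 arrays at 4 h of OHT, by siRNA; points are arrays, the horizontal mark is the mean of 3 arrays and the bars are 1 SD. NFYB is lower, and NFYA and NFYC are higher, in all 6 NFYB siRNA arrays than in all 6 control arrays.

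Over the whole array, 651 of 22215 probe sets (2.93%) passed the test at 4 h at an adjusted p under 0.05, 328 higher (1.48%) and 323 lower (1.45%) with NFYB siRNA. Taking for each of 11963 genes its brightest probe set, 429 genes passed (3.59%), 217 higher (1.81%) and 212 lower (1.77%). Large changes were more often decreases, as 47 of the lower and 25 of the higher probe sets changed at least 2-fold. Of the 651 probe sets, 646 had the same sign in all 4 pairs of an NFYB with a control siRNA, and 332 did not overlap between the groups of 6 (over all probe sets tested, 479 did not overlap, 2.16%).

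The siRNAs within an arm also differed from each other. In a fit with the 4 siRNAs apart, 1763 probe sets (7.94%) differed between the Ambion and Dharmacon NFYB siRNAs and 2969 (13.4%) between the Dharmacon and Sigma-Aldrich control siRNAs, and in that same fit the means of the 2 arms differed at 2284. The pooled comparison, which takes the spread between siRNAs of an arm into its error, is the one that called 651. Of those 651, 136 also differed between the NFYB siRNAs (45 higher and 91 lower) and 147 between the control siRNAs (108 higher and 39 lower). The single pairs of an NFYB and a control siRNA called 1396 to 3187 probe sets. Probe sets that passed in each of the 4 pairs with one sign, and in the pooled comparison, numbered 155 (0.698%), 71 higher and 84 lower. With siRNA and time as a random block, which lets the arrays of one siRNA and time be correlated, 214 probe sets (0.963%) remained, 97 higher and 117 lower, all of them among the 651. A gene below is said to be lost under the block where it did not pass that test.

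**Figure D2:**
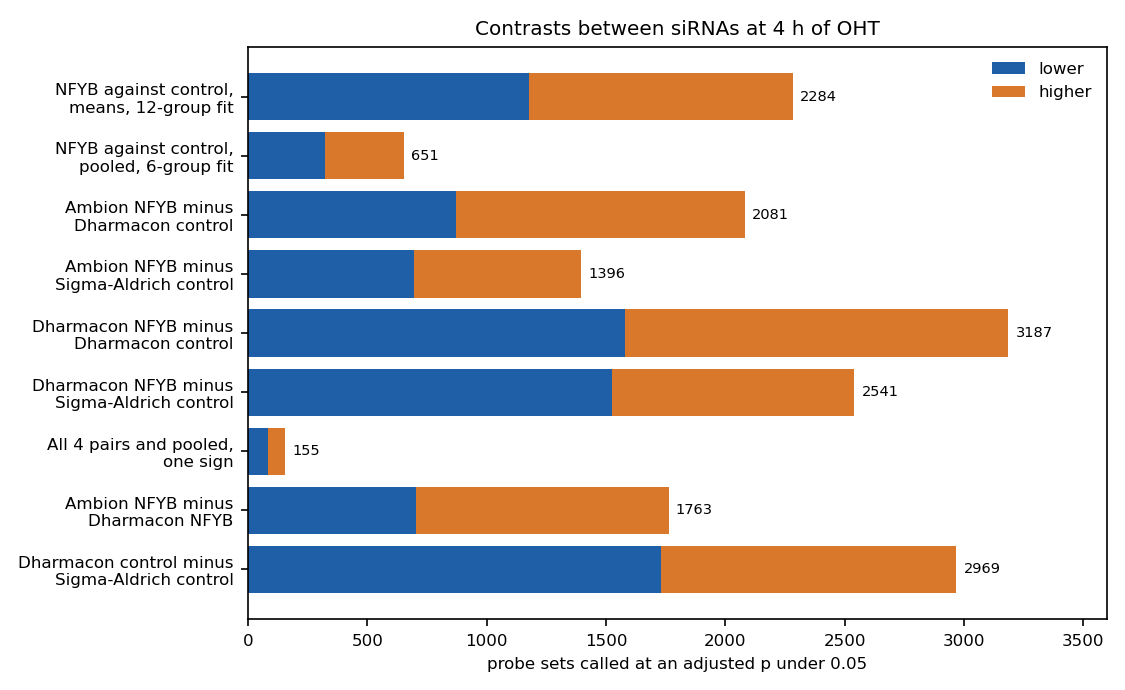
Number of probe sets called at an adjusted p under 0.05 (limma) at 4 h of OHT, stacked by direction of the first-named siRNA or arm, for the pooled comparison (651), the arms as means of 2 siRNAs (2284), the 4 pairs of an NFYB with a control siRNA, the probe sets called in the 4 pairs and the pooled comparison with one sign (155), and the 2 pairs of siRNAs within an arm (1763 and 2969). The pooled bar comes from a fit of 6 groups and the bars of pairs and means from a fit of 12 groups.

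Among the 15 genes with the greatest decrease, ADI1, ZNF165, CDHR1 and SFRP1 changed by nearly the same amount with each NFYB siRNA. ADI1, an enzyme of the methionine salvage pathway, ran from 715 to 947 in control arrays with a median of 940 and from 229 to 341 with a median of 275 in NFYB siRNA arrays. ADI1 fell by 1.67 on the log2 scale (SE 0.126, limma adjusted p = 3.86e-11), with -1.59 for the Ambion and -1.75 for the Dharmacon siRNA, and no array overlapped. The upstream sequence of ADI1 above holds 1 CCAAT word, 63 bases before the start. ZNF165, a zinc finger protein, ran from 92.4 to 149 (median 130) in control and from 34.1 to 42.8 (median 40.2) in NFYB siRNA arrays, a change of -1.66 (SE 0.190, adjusted p = 2.59e-07). CDHR1, a cadherin-related protein of photoreceptors, ran from 153 to 191 (median 168) and from 53.9 to 93.0 (median 62.8), a change of -1.34 (SE 0.148, adjusted p = 1.40e-07). These groups did not overlap either. The only word of the CDHR1 window begins 4 bases after the start, outside the stretch that was printed for other genes.

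SFRP1, a secreted inhibitor of Wnt signalling, fell on all 3 of its probe sets. The signal of its brightest probe set ran from 808 to 1346 with a median of 1117 in control arrays and from 364 to 526 with a median of 444 in NFYB siRNA arrays. Every NFYB siRNA array was below every control array, and SFRP1 fell by 1.33 (SE 0.111, limma adjusted p = 2.19e-10), with its other probe sets at -1.22 and -1.14. PRKCZ, the atypical protein kinase C zeta, ran from 506 to 693 (median 668) in control and from 283 to 409 (median 337) in NFYB siRNA arrays and fell by 0.94 (SE 0.108, adjusted p = 2.59e-07), again without overlap. Both passed also under the block and in each setting that left out 1 array.

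Several genes of lipid handling and of the extracellular space fell further with the Dharmacon than with the Ambion siRNA. FADS2, a desaturase that makes long polyunsaturated fatty acids, ran from 972 to 2265 with a median of 1471 in control arrays and from 354 to 820 with a median of 569 in NFYB siRNA arrays. Its change was -1.44 (SE 0.238, limma adjusted p = 0.000155), with -1.06 for Ambion and -1.82 for Dharmacon, and these siRNAs differed (adjusted p = 0.0496). LPL, lipoprotein lipase, changed by -1.36 (154.8 to 233 in control, 32.1 to 123 in NFYB siRNA arrays; -0.996 on its brighter probe set, which passed too), COL3A1, a fibrillar collagen, by -1.41 (289 to 510 against 77.7 to 237) and IGFBP5, a secreted binder of insulin-like growth factors, by -1.27 (1412 to 2049 against 382 to 1178). In all of these the lowest control array was above the highest NFYB siRNA array. The siRNAs also differed for LPL (-0.80 with Ambion and -1.92 with Dharmacon, limma adjusted p = 0.00029), COL3A1 (-0.90 and -1.92, 9.80e-05) and IGFBP5 (-0.64 and -1.89, 8.89e-09). For IGFBP5, 2 of 5 probe sets passed, and for COL3A1, 2 of 4. LRRC17, a secreted leucine-rich repeat protein, ran from 164 to 340 (median 225) and from 64.2 to 108 (median 77.7) and fell by 1.49 (adjusted p = 0.000323). For LRRC17 the difference between the NFYB siRNAs did not pass (0.267), but its control siRNAs lay apart, with means of 305 (Dharmacon) and 169 (Sigma-Aldrich).

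The remaining large decreases were uneven among arrays. OLFML2A, an extracellular olfactomedin-like protein, ran from 72.5 to 147 (median 128) in control and from 7.86 to 80.4 (median 36.2) in NFYB siRNA arrays, with all but 1 of the NFYB siRNA arrays lower than the lowest control array and a change of -2.04 (SE 0.429, limma adjusted p = 0.00376). OLFML2A, the nucleoside transporter SLC29A3 (-1.26), the latent TGF-beta binding protein LTBP1 (-1.26) and the scaffold protein MPDZ (-1.16) were lost under the block (limma adjusted p = 0.0735, 0.124, 0.254 and 0.197). For both MPDZ and LTBP1 these values come from the dimmer of 2 probe sets. The brighter one of MPDZ measured -0.09 and that of LTBP1 -0.60, and neither passed. The call of LTBP1 was lost when any one of 6 arrays was left out (the highest adjusted p, 0.130, came without replicate 3 of the Dharmacon NFYB siRNA), and that of MPDZ without replicate 1 of the Dharmacon control (0.0575) or replicate 2 of the Dharmacon NFYB siRNA (0.0718). GLCE, an epimerase of heparan sulfate synthesis, changed by -1.18 and passed both tests (limma adjusted p = 0.0028, and 0.0486 with the block). Its control arrays split by siRNA, at 232 to 250 (Dharmacon) and 129 to 176 (Sigma-Aldrich). The arms overlapped, as replicate 3 of the Ambion siRNA (134) lay above replicate 1 of the Sigma-Aldrich control (129).

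**Figure D3:**
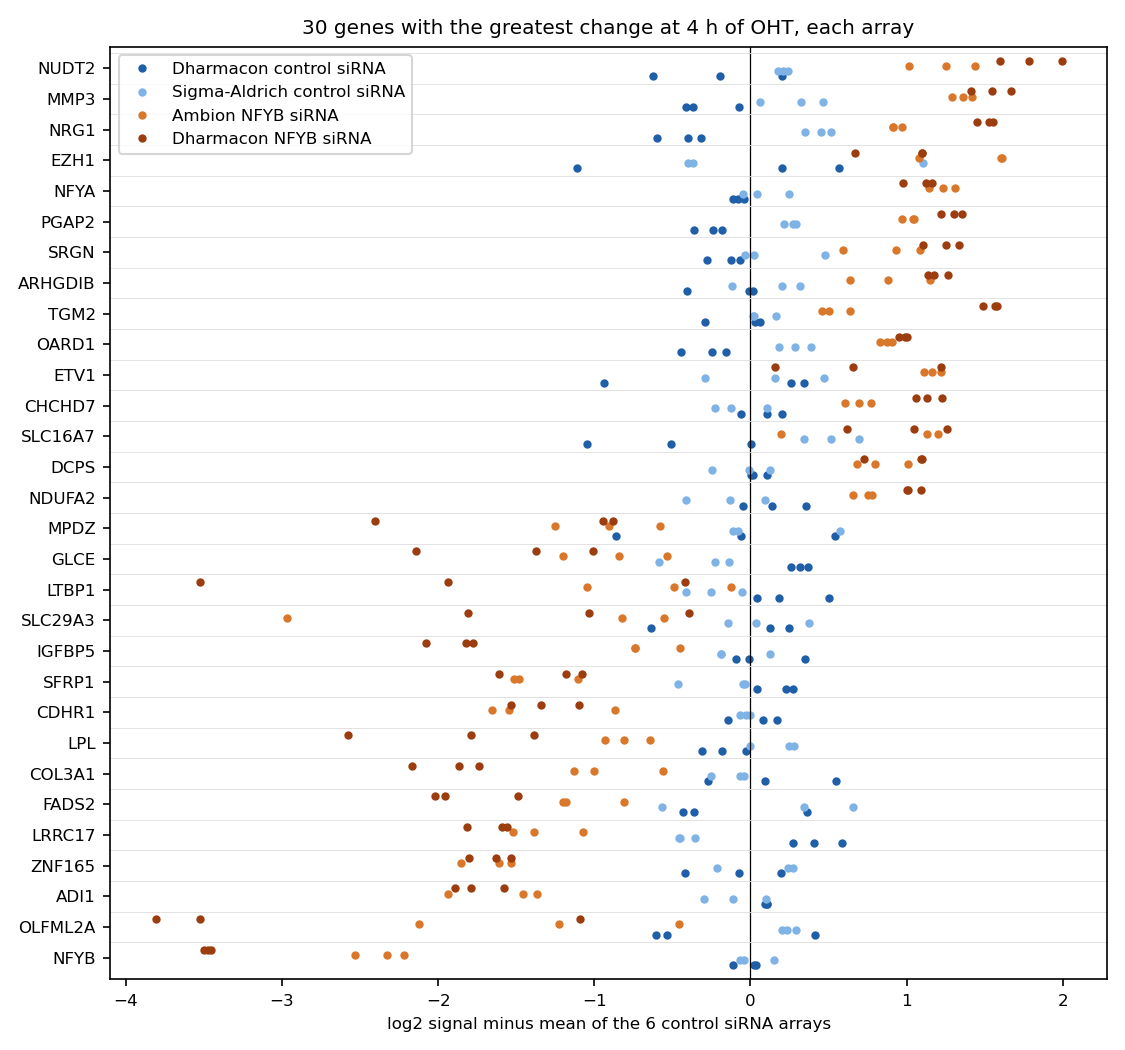
Log2 signal minus the mean of the 6 control arrays for each of the 12 arrays at 4 h of OHT, for the 30 genes with the greatest change (15 in each direction), coloured by siRNA. ADI1, SFRP1, NFYA and PGAP2 show no overlap between the arms, while EZH1, ETV1, SLC16A7, LTBP1 and SLC29A3 have arrays of one arm within the range of the other.

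The greatest increase among brighter probe sets was that of NUDT2, an enzyme that cleaves diadenosine tetraphosphate. NUDT2 ran from 189 to 345 with a median of 333 in control arrays and from 591 to 1164 with a median of 839 in NFYB siRNA arrays. It rose by 1.51 (SE 0.172, limma adjusted p = 2.42e-07) without overlap, by 1.23 with Ambion and 1.79 with Dharmacon. Its upstream sequence, above, holds 3 words, so a CCAAT word stood upstream of a gene that rose as well as of genes that fell. DCPS, the scavenger decapping enzyme, rose by 0.90 (266 to 344 against 506 to 676), PGAP2, a gene of GPI anchor maturation, by 1.16 (197 to 309 against 494 to 646, with 1.13 on its brighter probe set), OARD1, an ADP-ribose hydrolase, by 0.93 (390 to 696 against 948 to 1067) and CHCHD7, a small mitochondrial protein, by 0.91 (374.5 to 503 against 666 to 1023). None of these 4 overlapped between groups, and each passed also under the block. The control arrays split by siRNA for OARD1, at 390 to 478 (Dharmacon) and 603 to 696 (Sigma-Aldrich), and for PGAP2, at 197 to 223 and 293 to 309.

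The stromelysin and collagenase genes stood out among the increases. MMP3, stromelysin 1, ran from 285 to 522 with a median of 378 in control arrays and from 929 to 1203 with a median of 1012 in NFYB siRNA arrays, and rose by 1.45 (SE 0.194, limma adjusted p = 4.40e-06), by 1.36 with Ambion and 1.54 with Dharmacon. MMP1, interstitial collagenase, ran from 1.19 to 22.9 with a median of 4.29 in control arrays and from 49.0 to 82.6 with a median of 66.1 in NFYB siRNA arrays. The MMP1 groups did not overlap, and the change was 3.71 (SE 0.431, adjusted p = 3.16e-07), the highest value of any probe set tested. MMP1 lies in the dimmer 40% of probe sets, and its control arrays spread over 1.19 to 22.9, so the size of the change is imprecise. Its change was 2.99 at 0 h and 2.57 at 8 h.

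TGM2, tissue transglutaminase, showed both a shared rise and a difference between the siRNAs. The 6 control arrays ran from 645 to 881 with a median of 802, the 3 Ambion arrays measured 1082, 1117 and 1228, and the 3 Dharmacon NFYB siRNA arrays 2339, 2214 and 2353. Every NFYB siRNA array was above every control array, and TGM2 rose by 1.04 (SE 0.196, limma adjusted p = 0.000991), with 0.53 for Ambion and 1.55 for Dharmacon (adjusted p of their difference 8.94e-11). NRG1, the growth factor neuregulin 1, rose by 1.22 (265 to 575 against 755 to 1178), although only 1 of its 6 probe sets passed. The NRG1 means were 298 (Dharmacon) and 546 (Sigma-Aldrich) with the control siRNAs, and 766 (Ambion) and 1145 (Dharmacon) with the NFYB siRNAs. SRGN, the proteoglycan serglycin, rose by 1.05 on the dimmer of its 2 probe sets (29.8 to 50.3 against 54.5 to 91.1), while the brighter one measured 0.42 and did not pass (limma adjusted p = 0.205). The histone methyltransferase EZH1 rose by 1.19 on a dim probe set that was lost under the block (limma adjusted p = 0.114), and by 0.82 on its brightest one, which passed both tests (0.00048, and 0.0281 with the block). The ETS factor ETV1 (0.92), the monocarboxylate transporter SLC16A7 (0.91) and NDUFA2 of complex I (0.88) were lost under the block (limma adjusted p = 0.330, 0.264 and 0.0790). The NDUFA2 value is that of the dimmer of 2 probe sets, and the brighter one measured 0.23 and did not pass (limma adjusted p = 0.200). The other probe set of SLC16A7 (0.35, limma adjusted p = 0.469) and the other 4 of ETV1 did not pass either. The calls of ETV1 and SLC16A7 were each lost without one of several single arrays (highest adjusted p 0.142 and 0.157).

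Genes of the cell cycle were divided in their direction. Of 17 measured cell cycle genes with known CCAAT boxes, 3 were higher (CDC25C, PLK1 and CKS2), 1 lower (CCNB2) and 13 did not pass, with a median change of 0.07, beside 1.81% of all genes higher, 1.77% lower and a median of -0.0026 over all genes. CDC25C, the phosphatase that activates CDK1 for mitosis, ran from 227 to 351.2 with a median of 253 in control arrays and from 414 to 527 with a median of 463 in NFYB siRNA arrays. CDC25C rose by 0.81 (SE 0.0975, limma adjusted p = 5.88e-07) without overlap, after 0.12 at 0 h (adjusted p = 0.637) and before 1.42 at 8 h, and the difference between 4 h and 0 h did not pass (adjusted p = 0.0620). PLK1, the polo-like kinase of mitosis, ran from 313 to 387 (median 379) and from 542 to 640 (median 583) and rose by 0.68 (SE 0.0797, adjusted p = 3.99e-07), also without overlap. CCNB2, cyclin B2, moved the other way: it ran from 2768 to 3617 (median 3335) and from 2523 to 3155 (median 2624) and fell by 0.28 (SE 0.0692, adjusted p = 0.0180). Its upstream sequence, above, holds 4 CCAAT words. The CCNB2 groups overlapped, its call was lost under the block (limma adjusted p = 0.156), and leaving out replicate 3 of the Sigma-Aldrich control ended it (0.0563). CKS2 was lost under the block too (limma adjusted p = 0.241) and without any one of 7 arrays (highest adjusted p 0.0873).

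Of 51 measured genes of DNA replication and G1/S, 42 lay above 0 (5933 of 11963 over all genes), with a median of 0.11. Of the 51, 10 rose and none fell (19.6%, beside 1.81% of all genes higher). They were MCM3, MCM5 and MCM10 of the replicative helicase and its loading, GINS2, ORC3 of the origin complex, RPA2 of the single-strand binding protein, PRIM1 of primase, RFC4 of the clamp loader, the uracil glycosylase UNG and TIPIN of the fork protection complex. The changes were small. MCM3 ran from 1554 to 1800 with a median of 1638 in control arrays and from 2058 to 2406 with a median of 2260 in NFYB siRNA arrays, a rise of 0.42 (SE 0.0599, limma adjusted p = 1.14e-05) with no overlap. MCM10 rose by 0.43, GINS2 by 0.45, TIPIN by 0.46 and RPA2 by 0.35, and these with MCM3 were the 5 that passed under the block. At 0 h 10 genes of the list were higher and 1 lower, and at 8 h 10 were higher. Over all 11963 genes, 235 were higher and 284 lower at 0 h, and 324 were higher at 8 h. Of 40 genes of G2/M and mitosis, 7 rose (17.5%, beside 1.81% of all genes) and 1 fell (2.5%, beside 1.77%). Besides those already named they were BIRC5, BUB1, TPX2 and FOXM1, with changes of 0.24 to 0.28, all lost under the block. In the 12 genes of the E2F and pocket protein family none passed (limma, 1 at an unadjusted p under 0.05).

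Several regulators of the cycle and of E2F1 activity did not pass at 4 h. CDC25A measured 0.11 (adjusted p = 0.835), CCNE1 -0.06 (0.848), CCNA2 0.11 (0.856), CDK1 -0.08 (0.827) and E2F1 0.20 (0.564), on the scale of log2 fold change with limma adjusted p. CDK1 measured 0.16 with Ambion and -0.33 with Dharmacon, and the siRNAs differed (adjusted p = 0.00249). FOXO1 (0.10), FOXO3 (-0.09) and TOPBP1 (0.13) did not pass either.

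Genes of apoptosis moved in both directions. Of 31 measured proapoptotic genes, 4 rose (12.9%, beside 1.81% of all genes) and 1 fell (3.23%, beside 1.77%), with a median of -0.05. SIVA1, a proapoptotic partner of TNF receptor family members, ran from 831 to 1241 with a median of 999 in control arrays and from 1394 to 1604 with a median of 1510 in NFYB siRNA arrays, and rose by 0.58 (SE 0.0771, limma adjusted p = 4.34e-06), with all 3 of its probe sets passing. BNIP3, a BH3-only protein of mitochondria, rose by 0.82 (306 to 397 against 529 to 801), CYCS, cytochrome c, by 0.60 (4243 to 6325 against 7378 to 8321) and BID by 0.45. The groups did not overlap for SIVA1, BNIP3 or CYCS. TNFRSF10B, the death receptor for TRAIL, was the member that fell, by 0.62 (784 to 1055 against 509 to 694, adjusted p = 3.13e-05), and all 5 passed also under the block. Among 26 anti-apoptotic genes PEA15, BIRC5 and DAD1 rose by 0.22 to 0.32 (11.5%, beside 1.81%), and all were lost under the block (limma adjusted p = 0.0982, 0.0748 and 0.254). DAD1 was also lost without any one of 9 arrays (highest adjusted p 0.116). APAF1 measured -0.24 (adjusted p = 0.562), the apoptosis inhibitor API5 -0.36 (0.256), and MALT1 -0.31 (0.0998). The 1 probe set annotated to FOLH1 alone was dim, with 5.62 to 30.7 in control and 4.71 to 23.3 in NFYB siRNA arrays, and is not read as a response. The paper lists other probe sets for FOLH1 and also measured it by real-time PCR. Those probe sets are not annotated to FOLH1 alone and are not described here. The API5 value was -0.65 with the Ambion and -0.07 with the Dharmacon siRNA, and these differed (adjusted p = 3.28e-07).

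Some genes of protein folding in the ER fell. Of 30 measured, 5 fell and none rose (16.7%, beside 1.77% of all genes lower). The median was -0.20, and 24 of 30 lay below 0, beside 6030 of 11963 over all genes. SEL1L, of the complex that retrieves misfolded proteins, ran from 1276.5 to 1456 with a median of 1358 in control arrays and from 743 to 1019.6 with a median of 931 in NFYB siRNA arrays, and fell by 0.61 (SE 0.0906, limma adjusted p = 2.93e-05). PDIA4, a disulfide isomerase, ran from 773 to 926 (median 871) and from 446 to 680 (median 547) and fell by 0.60 (SE 0.0825, adjusted p = 7.12e-06). HSPA5, the chaperone BiP, ran from 8474 to 9098 (median 8898) and from 5723 to 8077 (median 6796) and fell by 0.39 (SE 0.0813, adjusted p = 0.00376). The groups did not overlap for these 3, which hold 3 to 5 words in the window of their promoters, and all 3 passed under the block. SDF2L1 (-0.41) and MANF (-0.37) fell as well but were lost under the block (limma adjusted p = 0.154 and 0.0691). The median of the list was -0.05 with the Ambion and -0.40 with the Dharmacon siRNA, and HSPA5 differed between them (-0.24 and -0.53, adjusted p = 0.0159). At 0 h and at 8 h, 6 genes of the list were lower in each case. Over all 11963 genes, 284 were lower at 0 h and 308 at 8 h.

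A minority of mitochondrial genes rose, by small amounts. Of 57 genes of oxidative phosphorylation 7 rose and none fell (12.3%, beside 1.81% of all genes higher). The list median was 0.17, and 51 of 57 were above 0. Of 45 genes of the mitochondrial ribosome 5 rose and none fell (11.1%), with a median of 0.20 and 43 above 0. Over all genes 5933 of 11963 were above 0. NDUFB2, a subunit of complex I, ran from 2642 to 3421 with a median of 2929 in control arrays and from 3546 to 4071 with a median of 3754.5 in NFYB siRNA arrays, a rise of 0.34 (SE 0.0676, limma adjusted p = 0.00213). NDUFC1 (0.39) and NDUFB3 (0.34) of complex I, CYCS (0.60) and ATP5MC1 (0.59) of the ATP synthase ring rose without overlap and passed under the block, while NDUFB8 (0.32) and ATP5MG (0.28) were lost (limma adjusted p = 0.0683 and 0.0841). MRPL18, a protein of the large mitochondrial ribosomal subunit, rose by 0.65 (1321 to 2241 against 2572 to 2825), and with MRPL35 (0.36) it was one of the 2 in its list that passed under the block. The control arrays of MRPL18 split by siRNA, at 1321 to 1430 (Dharmacon) and 2007 to 2241 (Sigma-Aldrich). Those of CYCS split the other way, at 5701 to 6325 (Dharmacon) and 4243 to 4613 (Sigma-Aldrich). At 8 h, 18 genes of oxidative phosphorylation and 8 of the mitochondrial ribosome were higher. Over all 11963 genes, 324 were higher at 8 h, beside 217 at 4 h.

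In the extracellular matrix list, 6 of 48 genes fell (12.5%, beside 1.77% of all genes) and 2 rose (4.17%, beside 1.81%). Those that fell were the collagens COL3A1 and COL5A2 (-0.88), the crosslinking enzymes LOX (-0.49) and LOXL1 (-0.52), the collagen chaperone SERPINH1 (-0.50) and the hyaluronan link protein HAPLN1 (-0.73), and those that rose were MMP1 and MMP3, both of which degrade matrix. COL3A1, COL5A2 and LOX passed under the block. LOX ran from 484 to 620 (median 506) in control and from 333 to 409 (median 383) in NFYB siRNA arrays. The list median was 0.01 with the Ambion and -0.25 with the Dharmacon siRNA.

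Among BMP and Wnt genes 4 of 31 fell (12.9%, beside 1.77% of all genes) and none rose. Besides SFRP1 they were SMAD6 (-0.46), an inhibitor of BMP signalling, the Wnt receptor FZD1 (-0.25) and the ligand WNT5B (-1.74), and all 3 were lost under the block (limma adjusted p = 0.118, 0.300 and 0.292). WNT5B was dim, at 24.5 to 77.9 in control and 3.26 to 29.7 in NFYB siRNA arrays, and the groups overlapped. WNT5B and FZD1 were each lost also without any one of 8 arrays (highest adjusted p 0.167 and 0.111). In cholesterol synthesis 2 of 21 genes fell (9.52%): HMGCS1, HMG-CoA synthase, by 0.78 (1311 to 2380 against 832 to 1225) and the sterol oxidase MSMO1 by 0.47. The control arrays of HMGCS1 split by siRNA, at 2176.5 to 2380 (Dharmacon) and 1311 to 1589.5 (Sigma-Aldrich). FADS2 was the only one of 17 genes of fatty acid synthesis that passed (5.88%), although 7 of the 17 were below 0 at an unadjusted p under 0.05. Of 13 mesenchymal markers S100A4 (-0.53) and CDH2 (-0.30) fell (15.4%), the latter lost under the block (limma adjusted p = 0.269) and without any one of 9 arrays (highest adjusted p 0.115).

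Lists linked to stress or to the siRNA itself were counted in the same way, beside 1.77% of all genes lower and 1.81% higher. IFI6 (-0.50, limma adjusted p = 0.000452) was the 1 gene of 37 of the interferon response that passed (2.7%), SRF (-0.72) the 1 of 25 immediate-early genes (4%), and STIP1 (0.38) the 1 of 17 cytosolic chaperones (5.88%). SRF and STIP1 were lost under the block (limma adjusted p = 0.170 and 0.175), and without any one of 6 and 7 arrays (highest adjusted p 0.0782 and 0.109). Of 19 p53 targets TIGAR rose by 0.35 (5.26%) and TNFRSF10B fell (5.26%). TIGAR was lost under the block (limma adjusted p = 0.124) and without any one of 4 arrays (highest adjusted p 0.0702). In the lysosome (31 genes), NF-kB (21) and RNA interference (8) lists none passed (limma, with 3, 3 and 3 genes at an unadjusted p under 0.05).

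**Figure D4:**
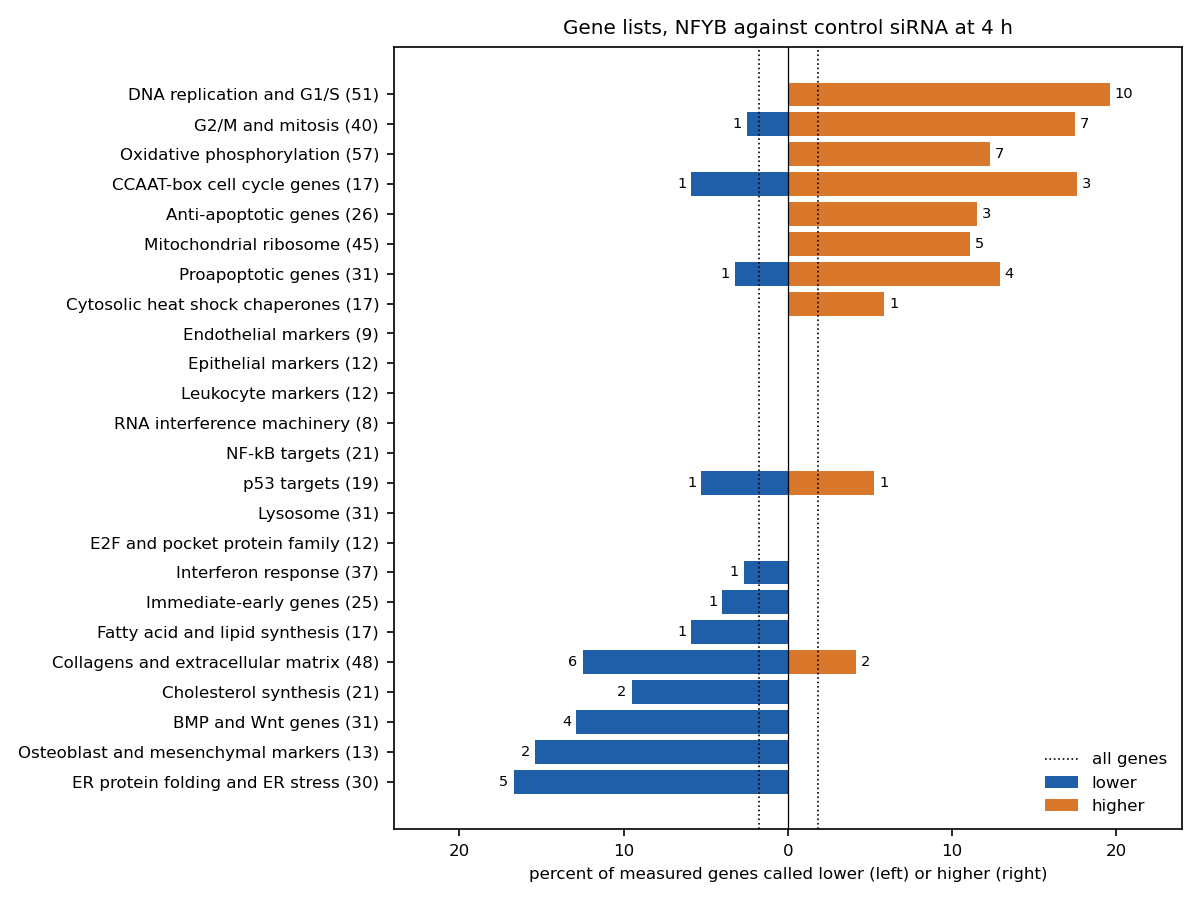
Percent of the measured genes of each list (number in brackets) called lower (left, blue) or higher (right, orange) with NFYB siRNA at 4 h of OHT, with the number of genes at the bar ends and dotted lines at the shares over all genes (1.77% lower, 1.81% higher). Lists of DNA replication, mitosis and mitochondria lie to the right, and those of ER folding, matrix, BMP and Wnt, and cholesterol synthesis to the left.

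The genes that E2F1 itself moves were asked for separately, chosen by their change between 0 h and 8 h in control arrays. The means compared for this choice hold no 4 h array. The test of that change came from the fit of all arrays, whose estimate of the spread includes those at 4 h. The choice is therefore not fully independent of the 4 h arrays. In control cells 1294 genes rose at least 2-fold between 0 h and 8 h of OHT. Of these, 26 were lower (2.01%) and 12 higher (0.927%) with NFYB siRNA at 4 h, beside 1.77% and 1.81% of all genes. The median was -0.07, and 63.7% of the set lay below 0, beside 50.4% of all genes. Of 1282 genes lowered at least 2-fold over the same time, 34 were lower (2.65%) and 22 higher (1.72%). The median of this set was -0.0053, with 51.2% below 0. Under the block 8 of the 1294 raised genes were lower and 6 higher, and 9 of the 1282 lowered genes were lower and 10 higher. Over all 11963 genes, 78 were lower and 67 higher under the block. NFYB is one of the 26. Others of them were PRKCZ, MNS1, a protein of cilia and flagella (-1.10), the drug efflux pump ABCB1 (-0.92), CHSY1, which makes chondroitin sulfate (-0.52), and SMAD6. Genes of the raised set that were higher with NFYB siRNA included SIVA1, CHCHD7, GINS2 and TFRC, the transferrin receptor (0.25). TFRC was lost under the block (limma adjusted p = 0.207). MNS1, ABCB1, CHSY1 and TFRC were named after their values were seen.

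Promoters were compared with no test. Of 11963 measured genes, 9562 had a RefSeq promoter of 300 bases, from 250 before to 50 after the start, and 37.3% of these held CCAAT on either strand, beside 35.7% of all promoters in the table. The share was 50.3% among the genes called lower (89 of 177) and 47.6% among those called higher (89 of 187). For the genes that passed under the block it was 62.5% of those lower (40 of 64) and 59.3% of those higher (32 of 54). Among genes that rose at least 2-fold between 0 h and 8 h of OHT in control cells, 33.9% held the word (338 of 998). Of those that were also called lower, 36.4% did (8 of 22). The 2 E2F-like words TTTGGCGC and TTTCCCGC, on either strand, were in 3.33% of the promoters of measured genes, 2.82% of those lower and 6.95% of those higher. By list, 78.6% of ER folding promoters (22 of 28), 78.1% of mitotic (25 of 32), 73.7% of cholesterol synthesis (14 of 19) and 59.1% of replication promoters (26 of 44) held CCAAT, against 28.6% of oxidative phosphorylation (14 of 49) and 25.6% of mitochondrial ribosome promoters (10 of 39). All 5 ER genes that fell held the word, and of the 8 replication genes that rose and had an entry 7 did. Lists that were rich in the word were thus found on both sides of 0.

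The means compared at 0 h and 8 h share no array with those at 4 h. The comparisons are still not independent, as they use the same siRNAs and come from one fit that shares an estimate of the spread. At 0 h 796 probe sets passed (3.58%) and at 8 h 1032 (4.65%). Of the 328 higher at 4 h, 131 were higher at 0 h (39.9% of the 4 h and 37.2% of the 0 h list) and 196 at 8 h (59.8% and 40.4%). Of the 323 lower, 168 were lower at 0 h (52% and 37.8%) and 174 at 8 h (53.9% and 31.8%). None passed in the opposite direction at another time. At all 3 times 94 were higher and 121 lower, while 95 and 102 passed only at 4 h, which does not show that they differ from the other times.

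The difference itself was called for 3 probe sets between 4 h and 0 h (0.0135%), and each of these genes was called at 0 h and not at 4 h. MMP15, a membrane-type metalloproteinase, was -1.91 at 0 h and -0.01 at 4 h, where control arrays ran from 123 to 272 and NFYB siRNA arrays from 108 to 242. SLC66A2, a membrane transporter-like protein, was 0.60 at 0 h and -0.0014 at 4 h, and POGLUT2, a protein glucosyltransferase of the ER, -0.95 and -0.26. The limma adjusted p of these differences was 0.0252, 0.00349 and 0.0485. With siRNA and time as a random block none of the 3 passed (0.950 for MMP15, 0.191 for SLC66A2 and 0.950 for POGLUT2, limma adjusted p), and with only the groups compared none did either (0.213, 0.147 and 0.361). The MMP15 difference was also lost without any one of 6 arrays (highest adjusted p 0.0838) and that of POGLUT2 without any one of 9 (0.112). None of 22215 probe sets passed (0%) between 8 h and 4 h in limma, with 871 at an unadjusted p under 0.05 (1083 between 4 h and 0 h).

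**Figure D5:**
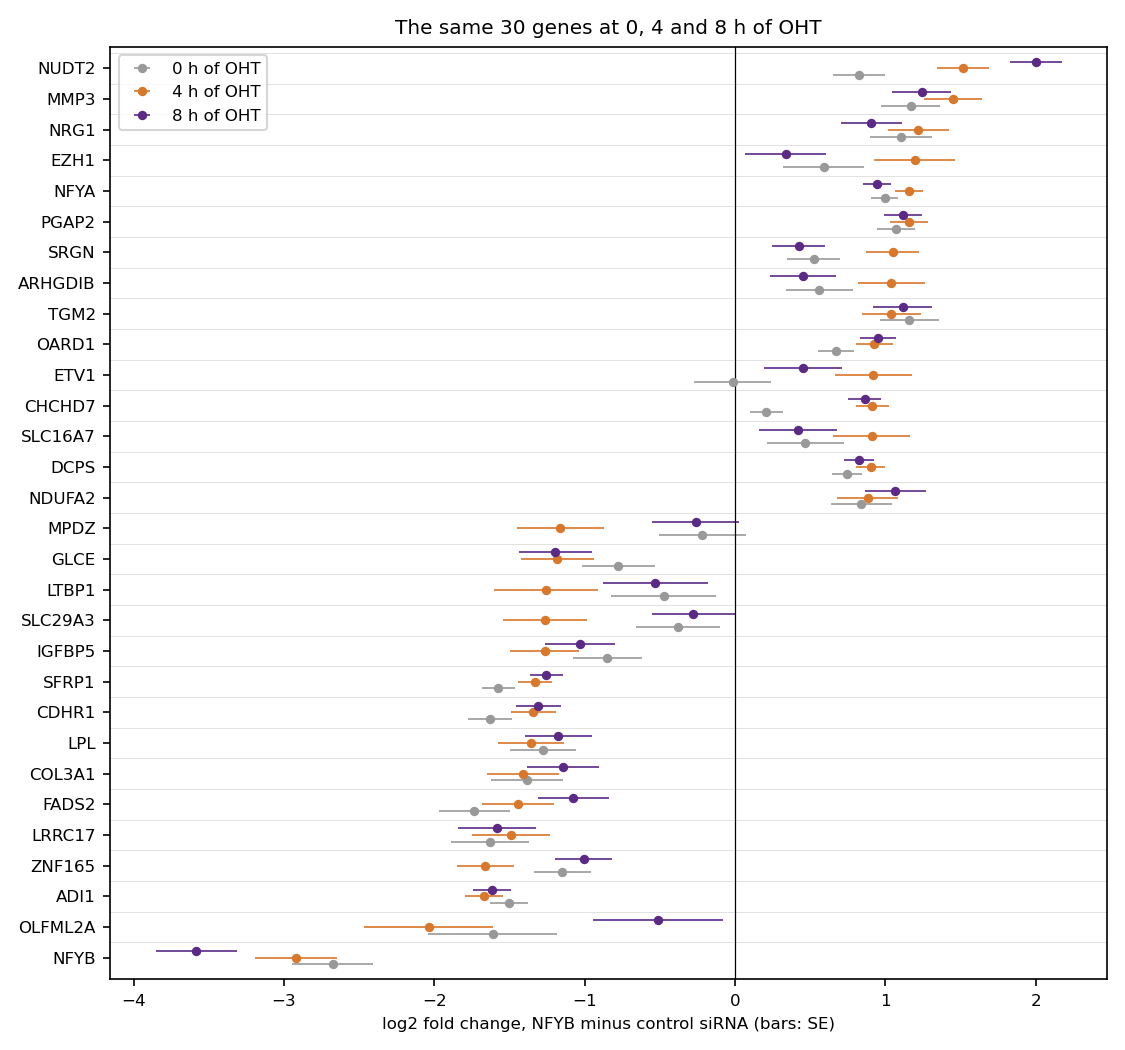
Log2 fold change of NFYB minus control siRNA at 0, 4 and 8 h of OHT for the 30 genes chosen by their change at 4 h, with bars of 1 SE. ADI1, SFRP1, CDHR1, PGAP2 and DCPS lie close together at the 3 times, while MPDZ, SLC29A3, LTBP1 and ETV1 are nearer to 0 at 0 h and 8 h than at 4 h, the time by which they were chosen.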

How the data were processed

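Total RNA of 36 cultures was hybridised to Affymetrix arrays, and the authors deposited MAS5 signal intensity values made in Affymetrix Expression Console, linear and scaled so that the trimmed mean of each array is near 500. The genome build was not given in the sources used here. From the deposited intensity values, 62 control probe sets of 22277 were left out and log2 was taken with no offset. The test was limma 3.58.1 in R 4.3.3 (eBayes with trend, two-sided, 6 groups of 6 arrays by arm and time), with Benjamini-Hochberg adjustment over 22215 probe sets and calls under 0.05. The pairs of siRNAs came from a fit of 12 groups, and the block from duplicateCorrelation (correlation 0.252). Of the probe sets 19064 name 1 gene, 1043 several and 2108 none in the platform annotation, and 19052 of the 19064 matched RefSeq by gene ID.

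Named genes were those the study names, the 15 with the greatest change in each direction (called, 1 gene, brighter 60%, one sign in the 4 siRNA pairs), those called for a difference between times, and up to 4 per gene list by adjusted p; the 30 genes are given by the probe set with the greatest change that met this rule, which for NFYB (in the plots), NDUFA2, SRGN, EZH1, LTBP1, MPDZ, LPL and PGAP2 is not the brightest, and every other gene by its brightest probe set. Members, lists and rules were chosen with earlier results of these data known. The labels call replicates biological but do not say whether cultures were started separately, so p-values measure the spread between these arrays. The number of arrays limits the precision. Scripts were tested on simulated data. Alternatives changed the offset, normalization, filter, variance trend, samples, siRNAs, block and test.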

Additional observations from a re-analysis of the deposited data

Results flagged for a closer look

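In 102 groups of 6 arrays, 5 held an array far from the others of its group, measured as its gap to the nearest array over the range of the group on the log2 scale, and chance alone gives about 1 in 20 groups. PRKCZ was lowest in replicate 2 of the Dharmacon control siRNA (506, next 646; gap 0.776). TGM2 was lowest in replicate 3 of the Dharmacon control siRNA (645, next 798; 0.679), and DCPS in replicate 3 of the Sigma-Aldrich control siRNA (266, next 314; 0.643). CCNB2 was highest in replicate 3 of the Ambion NFYB siRNA (3155, next 2733; 0.643), and MPDZ lowest in replicate 2 of the Dharmacon NFYB siRNA (16.01, next 35.6; 0.63).

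In 3 genes the change with NFYB siRNA at 4 h differed from that at 0 h (limma), though in none of them with the random block. The difference in log2 fold change was 1.91 for MMP15, -0.61 for SLC66A2 and 0.70 for POGLUT2.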

How the results depend on the processing

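Against 651 calls at 4 h (328 higher, 323 lower), 383 (166 higher) were made with only the 12 arrays at 4 h, 2284 (1108, 1176) with 12 groups, 214 (97, 117) with siRNA as a random block, 163 (71, 92) and 171 (77, 94) with the methods' t-test on linear and log2 signal after adjustment, 161 at the study's thresholds for 8 h, 1617 (959, 658) against the Dharmacon control siRNA alone, 397 (166 higher) with the Ambion and 1292 (522, 770) with the Dharmacon NFYB siRNA alone. The fit with the replicate block made 601 calls; same-numbered arrays at 4 h correlated from -0.168 to 0.158 (median 0.0207), so the number was not treated as a pairing. Without one replicate number at all times and siRNAs, 145 to 195 were called (66 to 89 higher, 79 to 106 lower), and without one array 442 (without replicate 3 of the Dharmacon NFYB siRNA) to 667 (217 to 344 higher, 225 to 347 lower). NFYB stayed between -2.108 and -1.895 without a replicate number and between -2.15 and -1.853 without one array. The siRNAs within an arm differed at 716 to 1003 (NFYB) and 1381 to 1874 (control) probe sets without a replicate number, and at 1200 to 1776 and 2253 to 3045 without one array. The 3 calls for 4 h minus 0 h became 1 with an offset of 16, 0 with only the groups compared or the random block, 87 with 12 groups, 32 and 8 against the Dharmacon and Sigma-Aldrich control alone, 19 with the Dharmacon NFYB siRNA alone, 0 to 1 without a replicate number and 1 to 3 without one array; the 0 calls for 8 h minus 4 h became 2 with the Dharmacon NFYB siRNA alone, 0 to 0 without a replicate number and 0 to 1 without one array. Fewer arrays enter several of these fits; otherwise the cause was not tested.

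Over the named genes and alternatives, 2042 values kept direction and side of the threshold, 376 no longer passed, 6 newly passed and 9 changed sign, all of them in genes that did not pass: APAF1 (0.0576) and CDK1 (0.00773) against the Sigma-Aldrich control alone, CDK1 (0.1635) with the Ambion siRNA alone, CCNE1 with the Dharmacon NFYB siRNA alone (0.0247) and without a replicate number (-0.1166 to 0.002438), and CCNA2 (-0.212 and -0.1093) and CDC25A (-0.0881 and -0.0156) with the Dharmacon control and the Dharmacon NFYB siRNA alone. Dim probe sets such as MMP1 and WNT5B have the least certain sizes.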
